A study of Mus musculus with 11 samples.

Results

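Hearts of the diabetic model given METTL3 by AAV were compared with hearts of mice on chow, over all genes. The comparison took 7 of the 11 libraries of the series by their titles, 4 labelled HFD+STZ+AAV METTL3 and called METTL3 here, and 3 labelled Chow. All are whole hearts of C57BL/6 mice with a labelled time of 26 weeks. The other 4 libraries, labelled HFD+STZ with no mention of AAV, are given beside them where stated. HFD and STZ are the usual letters for a high-fat diet and streptozotocin, which kills the insulin-making cells of the pancreas, and AAV for adeno-associated virus, although the labels spell out none of them. By their titles METTL3 and chow hearts differ in diet, toxin, virus and transgene at once. The share of each in a difference cannot be told apart in this comparison. The promoter of the transgene, the cells it was expressed in, and whether any other group received a virus were not given in the sources used here. Of 54532 genes in the table, 14862 passed the filter on low counts and were tested.

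METTL3 catalyses, within a complex, the writing of N6-methyladenosine into messenger RNA, a mark that affects splicing, decay and translation. A healthy heart burns mainly fatty acids and some glucose. In diabetes, fatty acids and glucocorticoids rise in blood, and the fatty acid sensor PPAR-alpha with its co-activator PGC-1 alpha drives genes that import and oxidise fat and hold back glucose use. The heart also houses macrophages and fewer dendritic cells and lymphocytes, which carry the class II antigen presentation genes.

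Libraries of the 2 groups held 13900531 to 16027937 counts. Chow replicate 3 stood apart from the other chow libraries. It had counts on 15734 genes, against 20672 and 20769, and a mitochondrial share of 9.28%, against 25.3% and 27.4%. Results are therefore given with and without it. Cardiomyocyte markers, 12 of 12 tested, were abundant in every library, with a summed level of 49283.7 to 57741.2 CPM (counts scaled to library size) in chow and 43551.0 to 50070.8 CPM in METTL3 hearts, and 0 of them passed the test. Sample codes in the labels run from 25 to 33 for METTL3 replicates 1 to 3 and from 78 to 98 for METTL3 replicate 4 and all chow libraries. HFD+STZ replicate 1 has code 83, and HFD+STZ replicates 2 to 4 have codes 26 to 28. What the codes stand for is not given, and a code range and the groups can hardly be told apart.

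Mettl3 (ENSMUSG00000022160, chromosome 14, 52294841 to 52305128, mm10) measured 7.88, 7.42 and 3.04 CPM in chow replicates 1 to 3 and 9.64, 6.52, 6.57 and 10.8 CPM in METTL3 replicates 1 to 4. The groups overlapped, and METTL3 replicates 2 and 3 lay below chow replicates 1 and 2. The log2 fold change was 0.45 (SE 0.35, 95% interval -0.30 to 1.21), with an edgeR quasi-likelihood adjusted p (Benjamini-Hochberg) of 0.479, and an exact permutation test (two-sided) gave p = 0.286. Without chow replicate 3 it was 0.12. A higher Mettl3 level was thus not detectable in the libraries labelled METTL3, and directions given for them rest on the label. Among 20 tested writers, erasers and readers of the mark, 0 passed in either direction (median log2 fold change 0.17, against -0.01 over all genes). The writer subunit Mettl14 showed a log2 fold change of -0.26 (SE 0.20), the demethylase gene Fto of -0.18 (SE 0.20) and the reader gene Ythdf3 of 0.65 (SE 0.17, adjusted p 0.0544).

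With edgeR, 475 of 14862 genes (3.20%) passed an adjusted p of 0.05, of which 271 were higher in METTL3 hearts (1.82%) and 204 lower (1.37%), and 3230 genes had an unadjusted p under 0.05. The 4 METTL3 and 3 chow libraries did not overlap in 18.7% of all genes tested, and in 468 of the 475. Without chow replicate 3, 750 of 15231 genes (4.92%) passed, 432 higher and 318 lower. Of the original 475, 370 passed again, 234 of the 271 higher genes (86.3%) and 136 of the 204 lower genes (66.7%). The difference between these shares was not tested. For 49 genes, all of them lower, the fitted log2 size shrank by over 1.5 times without it, and no gene changed sign, which the lack of overlap largely fixes. Protein-coding genes made up 248 of the higher and 195 of the lower genes.

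**Figure D1:**
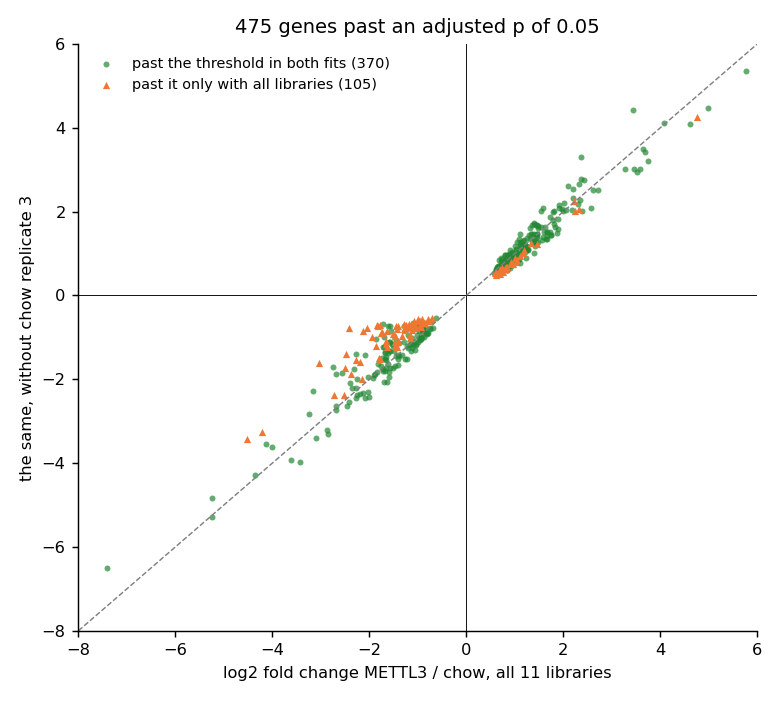
Log2 fold changes of the 475 genes past the threshold, with all 11 libraries in the fit (x axis) and without chow replicate 3 (y axis); the dashed line marks equal values. The 370 genes that passed in both fits are circles and the 105 that did not are triangles, 68 of them on the lower side, where many lie above the line because their size shrank.

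The number of genes past the threshold rested on several libraries. It was 34 without chow replicate 2, and 73, 160, 64 and 38 without METTL3 replicates 1, 2, 3 and 4. With the code range as a covariate 1 gene passed, the von Willebrand domain gene Vwa3a. Within codes 78 to 98 METTL3 replicate 4 alone meets the 3 chow libraries. With 1 METTL3 library in that fit, only effect sizes are given from it. Direction by base composition was uneven. Among the quintile of genes with the lowest transcript GC content 145 were higher and 8 lower, and in the quintile with the highest 14 were higher and 107 lower. With length and GC offsets, loess terms fitted to each library, 225 genes passed, 140 higher and 85 lower, and 167 of the 475 were among them.

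**Figure D2:**
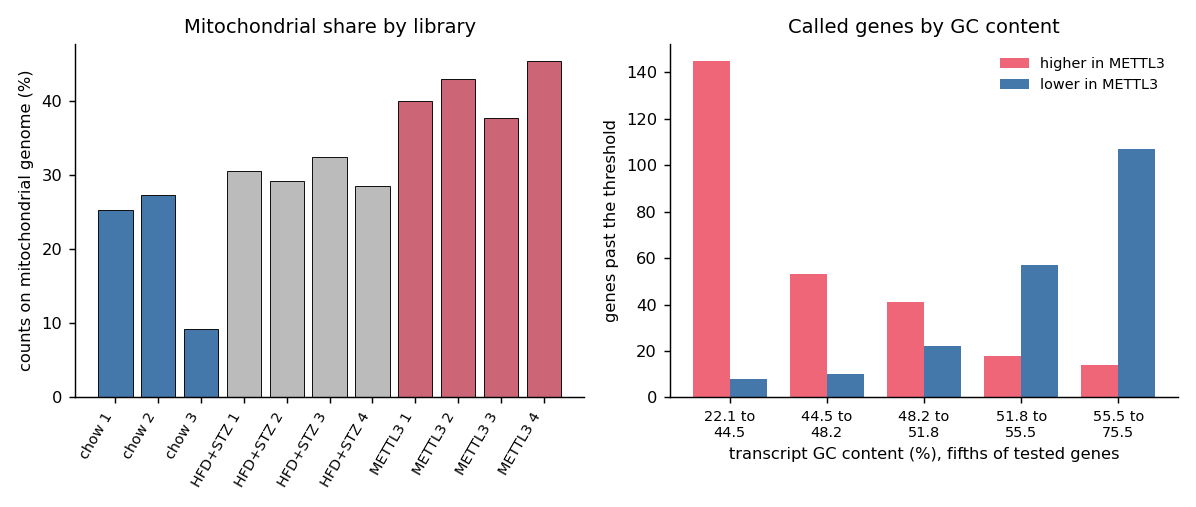
Left, percent of each library's counts that fall on the mitochondrial genome, 1 bar per library: chow 9.28% to 27.4%, HFD+STZ 28.6% to 32.5%, METTL3 37.7% to 45.5%. Right, number of genes past the threshold in each quintile of tested genes by transcript GC content; higher genes fall from 145 to 14 and lower genes climb from 8 to 107 across the quintiles.

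Genes of fatty acid use were in part higher in METTL3 than in chow hearts. Of 21 tested targets of PPAR-alpha, 7 rose and 0 fell, against 3.20% called over all genes. The median log2 fold change was 1.14 against -0.01 over all genes. Without chow replicate 3 (median 0.83) 7 of 7 passed again, and also with length and GC offsets. Groups did not overlap in 12 of the 21, against 18.7% of all genes tested. Among them were Pdk4, Angptl4, Acot1, Cd36, Plin5 and Slc25a20.

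Pdk4, which encodes a kinase that inactivates pyruvate dehydrogenase and with it glucose oxidation (ENSMUSG00000019577, chromosome 6, 5483351 to 5496309), measured 168, 353 and 131 CPM in chow replicates 1 to 3 and 4005, 810, 4548 and 1838 CPM in METTL3 replicates 1 to 4. Each METTL3 library lay above each chow library, but METTL3 replicate 2 was far below replicates 1 and 3. The mean rose 12.9-fold (log2 fold change 3.69, SE 0.71, edgeR adjusted p 0.0250). METTL3 replicate 4, the METTL3 library with a code in the range 78 to 98, had a log2 fold change of 3.05 against chow. HFD+STZ replicate 1, with code 83, measured 944 CPM, against 3173 to 5457 CPM in HFD+STZ replicates 2 to 4. The part of the code range in these levels was not tested.

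Angptl4, whose secreted product blocks lipoprotein lipase (ENSMUSG00000002289, chromosome 17, 33773750 to 33781575), measured 2.33, 5.75 and 2.98 CPM in chow and 69.7, 19.3, 65.7 and 29.9 CPM in METTL3 hearts. The groups did not overlap, and METTL3 replicates 2 and 4 were the lower ones, as for Pdk4. It rose 12.5-fold (log2 fold change 3.64, SE 0.57, edgeR adjusted p 0.0125). Acot1, a cytosolic acyl-CoA thioesterase, rose 5.21-fold, again with METTL3 replicates 2 and 4 lowest.

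Cd36, the fatty acid transporter of the cell membrane (ENSMUSG00000002944, chromosome 5, 17781690 to 17888801), measured 1454, 1496 and 1085 CPM in chow and 4838, 3428, 4218 and 4464 CPM in METTL3 hearts. Here the METTL3 libraries lay close together, far above every chow library. It rose 3.15-fold (log2 fold change 1.66, SE 0.23, edgeR adjusted p 0.00751; 1.70 for METTL3 replicate 4 alone). HFD+STZ replicate 1, with code 83, measured 2357 CPM, against 3014 to 3801 CPM in HFD+STZ replicates 2 to 4. Plin5, which coats lipid droplets at mitochondria, rose 2.33-fold, and Slc25a20, the carnitine-acylcarnitine carrier of the inner membrane, 2.26-fold. Ucp3, an uncoupling protein, showed a log2 fold change of 1.76 (SE 0.47) and just missed the threshold (adjusted p 0.0595). Cpt1b, the muscle form of the enzyme that commits fatty acids to mitochondria, was listed with 57 counts over the chow and 50 over the METTL3 libraries, too few to read a change. How reads shared between genes were treated is not given, so these counts may not reflect the level of Cpt1b in these hearts.

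The stretch before the Cd36 start site that RefSeq lists (GRCm38.p6, chr5:17835897-17836046, minus strand, 150 bases) is shown because it holds a match to the element PPAR proteins bind, in capitals, 63 to 51 bases before the start. The element was searched on both strands as 2 copies of AGGTCA with 1 base between, with up to 2 of 12 bases different.
Cd36: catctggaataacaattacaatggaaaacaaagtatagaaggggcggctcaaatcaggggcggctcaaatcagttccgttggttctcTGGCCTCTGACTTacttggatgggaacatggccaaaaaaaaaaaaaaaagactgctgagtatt
Of the 7 PPAR-alpha targets that rose, 5 have a window from 250 bases before to 50 after the start, and 2 of the 5 held such a match, against 4.4% of 27025 genes with a window. Among tested genes with a window the share was 3.59%. The match describes the letters only.

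Enzymes of fatty acid oxidation, 24 tested, had a median log2 fold change of 0.76, with 6 higher and 1 lower, against 3.20% called over all genes. Without chow replicate 3 the median was 0.71, with 9 higher and 0 lower, against 4.92% called over all genes. Ech1, an auxiliary enzyme for unsaturated fatty acids (ENSMUSG00000053898, chromosome 7, 28825217 to 28832247), measured 815, 935 and 1014 CPM in chow and 2003, 1920, 1943 and 2076 CPM in METTL3 hearts. Both groups were tight and well apart. The rise was 2.16-fold (log2 fold change 1.11, SE 0.18, edgeR adjusted p 0.0160). Acads, the short-chain acyl-CoA dehydrogenase (2.07-fold), Decr1, a dienoyl-CoA reductase (2.05-fold), Acaa2, a thiolase that ends each round (1.84-fold), and the isomerase gene Eci2 (1.80-fold) rose along with Slc25a20, and each passed again without chow replicate 3. Decr1 (adjusted p 0.0952) and Eci2 (0.106) did not pass under length and GC offsets. Etfb, a subunit of the electron transfer flavoprotein, was the member that fell, and its value rested on chow replicate 3 at 204 CPM, since replicates 1 and 2 lay at 25.8 and 28.1 CPM. Its log2 fold change of -2.43 became -0.77 without that library (adjusted p 0.105).

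Related genes followed. Mgll, which cleaves monoacylglycerol, rose 1.98-fold. Idh3g, a subunit of isocitrate dehydrogenase, was the only riser among 17 tested enzymes of the tricarboxylic acid cycle (1.64-fold), and Aldh6a1, which acts late in valine breakdown, the only riser among 21 of branched-chain amino acid catabolism (2.02-fold). Among 19 PPAR, ERR and PGC-1 regulators, Ppargc1a, which encodes PGC-1 alpha, rose 2.73-fold (log2 fold change 1.45, SE 0.30, edgeR adjusted p 0.0299) and Pparg 2.38-fold (1.25, SE 0.22, adjusted p 0.0194). All of these passed again without chow replicate 3, and with length and GC offsets Aldh6a1 did not (adjusted p 0.0975). A single call in 17 or 21 genes is near the 3.20% called over all genes. Of 21 tested glucose transport and insulin signalling genes 0 passed, and the insulin-responsive glucose transporter gene Slc2a4 had a log2 fold change of -0.20 (SE 0.24). Glycolytic enzymes, 20 tested, included 1 call, Gapdh, which fell 10.7-fold on levels of 63.9, 134 and 8.05 CPM in chow against 5.56 to 8.19 CPM in METTL3 hearts. Those groups overlap at chow replicate 3, and Gapdh has many processed pseudogenes with which reads can be shared, so this value is uncertain.

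**Figure D3:**
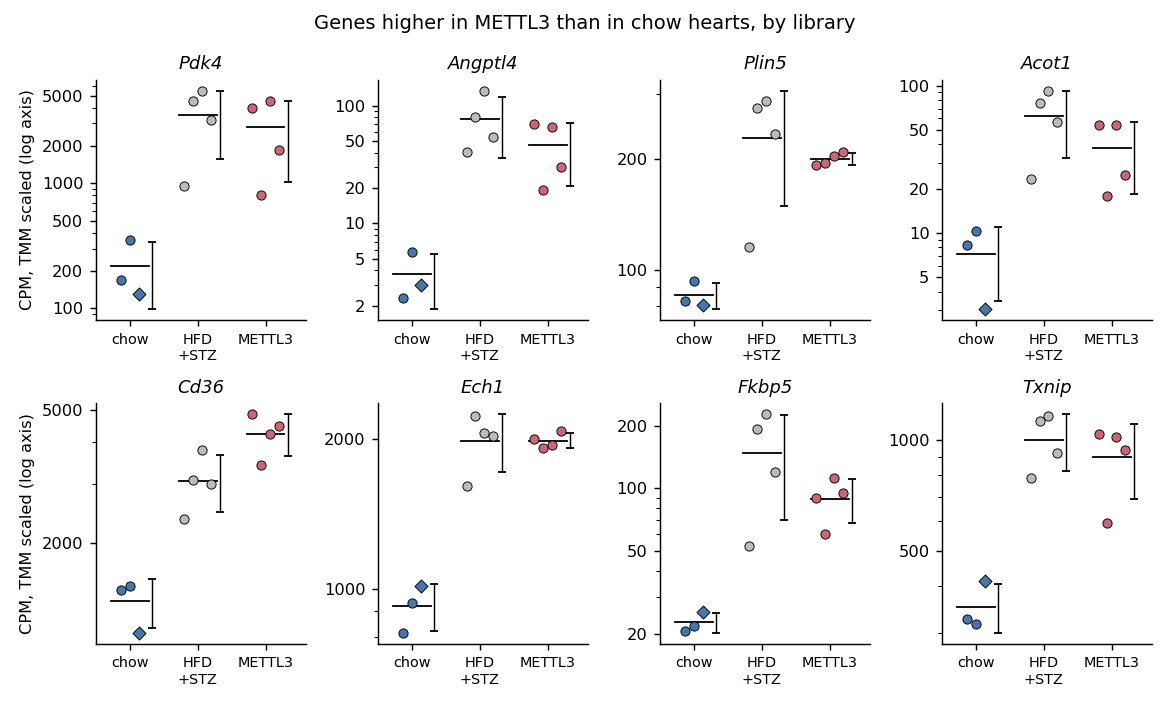
CPM on a log axis in each library (points; chow replicate 3 as a diamond), with the group mean (line) and SD (bar beside it), for 8 genes that rose. METTL3 and chow libraries do not overlap in any panel; Pdk4 spans 810 to 4548 CPM and Cd36 3428 to 4838 CPM within the METTL3 group.

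Genes that glucocorticoids induce rose in part, 4 of 21 tested, with 0 lower, against 3.20% called over all genes. The median was 0.55, against -0.01 over all genes. Without chow replicate 3 the median was 0.90, with 6 higher, against 4.92% called over all genes. Fkbp5, a co-chaperone that restrains the glucocorticoid receptor (ENSMUSG00000024222, chromosome 17, 28399094 to 28517527), measured 20.7, 21.8 and 25.4 CPM in chow and 89.6, 60.5, 112 and 94.9 CPM in METTL3 hearts. Even the lowest METTL3 library was far above the highest chow library. It rose 3.94-fold (log2 fold change 1.98, SE 0.40, edgeR adjusted p 0.0284). Hif3a of the hypoxia-inducible factor family rose 4.61-fold and the kinase gene Sgk1 2.03-fold, and both passed again without chow replicate 3. Sgk1 did not pass under length and GC offsets (adjusted p 0.0698). Ddit4, an inhibitor of mTORC1, rose 5.01-fold but lost its call without chow replicate 3 (adjusted p 0.0676). With length and GC offsets Ddit4 passed (adjusted p 0.0469).

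Single stress genes rose, at shares of their lists near the 3.20% called over all genes. Txnip, which binds thioredoxin and is induced by glucose, averaged 352 ± 52.9 CPM in chow (SD, n = 3) and 896 ± 205 CPM in METTL3 hearts (SD, n = 4), a 2.54-fold rise (log2 fold change 1.35, SE 0.24, edgeR adjusted p 0.0202). The quinone reductase gene Nqo1, a target of NRF2, rose 2.35-fold. Herpud1, a gene of endoplasmic reticulum quality control, rose 2.65-fold among 22 tested genes of that stress response, and Bnip3, a mitophagy receptor, 2.27-fold among 20 of autophagy and atrophy. Herpud1 and Bnip3 were the only members of those lists to pass, and Txnip and Nqo1 the only 2 among 28 redox genes. All 4 passed again without chow replicate 3, and with length and GC offsets Nqo1 did not (adjusted p 0.113).

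Counts from the mitochondrial genome took a larger share of METTL3 libraries, 40.0%, 43.1%, 37.7% and 45.5%, than of chow libraries, 25.3%, 27.4% and 9.28%. Every METTL3 library lay above every chow library. The difference in means was 20.9 percentage points, and an exact permutation test (two-sided) gave p = 0.0286, the smallest that 4 against 3 libraries allow. Without chow replicate 3 it was 15.3 points, with an exact permutation p of 0.0667, again the smallest possible.

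Of 13 mitochondrial messenger RNAs, 3 rose (mt-Nd1, mt-Nd2 and mt-Nd6, subunits of complex I), against 3.20% called over all genes. The median log2 fold change was 1.45, and all 13 values were above 0. Without chow replicate 3 the median was 1.08 and 8 rose, against 4.92% called over all genes. In addition to the 3 above these were mt-Nd4, mt-Nd5, mt-Co1, mt-Co3 and mt-Cytb. Of the 8, mt-Nd6 (ENSMUSG00000064368, chromosome MT, 13552 to 14070) measured 6223, 6670 and 6964 CPM in chow and 14011, 28593, 20170 and 28416 CPM in METTL3 hearts. Chow replicate 3 was not low for this gene. Its mean rose 3.44-fold (log2 fold change 1.78, SE 0.28, edgeR adjusted p 0.0125). The gene lies on the strand opposite to most mitochondrial genes, and as no strand setting is stated, antisense reads may be counted in it. Of 15 mitochondrial transfer RNAs 5 rose, against 3.20% called over all genes. The tryptophan transfer RNA mt-Tw (3.49-fold) had the smallest p among them, but not the largest fold. Of the ribosomal RNAs mt-Rnr2 rose 2.65-fold. With length and GC offsets no mitochondrial messenger, transfer or ribosomal RNA passed (median of the 13 messenger RNAs 0.98; adjusted p 0.0753 for mt-Nd6, 0.0996 for mt-Tw and 0.0771 for mt-Rnr2). Mitochondrial genes also have copies in the nuclear genome, which can share reads.

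Nuclear genes for the same complexes were not called with all libraries. Of 76 nuclear subunits of oxidative phosphorylation 0 passed, against 3.20% called over all genes. Their median of -0.37 turned to 0.34 without chow replicate 3, where 2 of them rose, against 4.92% called over all genes. The median of 77 cytosolic ribosomal protein genes also changed sign, from -0.71 to 0.19 without that library, where 2 rose and 1 fell. Rpl11 was the member that fell, at 120 and 151 CPM in chow replicates 1 and 2, 564 CPM in chow replicate 3 and 71.0 to 98.3 CPM in METTL3 hearts. Its log2 fold change of -1.72 was -0.69 without chow replicate 3 (adjusted p 0.0320). A single call in 77 genes lies under the 3.20% called over all genes, and with length and GC offsets 0 of the 77 passed.

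Heat shock genes were among the lower genes. Of 23 tested, 5 fell and 0 rose, against 3.20% called over all genes (median -0.30, or -0.13 without chow replicate 3). Of the 5, 4 passed again without that library. Hspa1a, the inducible HSP70 (ENSMUSG00000091971, chromosome 17, 34969190 to 34972156), measured 31.4, 21.2 and 10.8 CPM in chow and 1.72, 1.92, 1.06 and 2.24 CPM in METTL3 hearts. Chow replicate 3 was the lowest of the chow libraries, still well above all METTL3 libraries. The level was 12.2-fold lower (log2 fold change -3.61, SE 0.49, edgeR adjusted p 0.00726; -3.27 for METTL3 replicate 4 alone). HFD+STZ replicate 1, with code 83, measured 6.25 CPM, against 1.32 to 2.98 CPM in HFD+STZ replicates 2 to 4. Hspa1b, the neighbour of Hspa1a, was 7.35-fold lower, and the HSP70 partner Dnajb1 3.20-fold. Dnajb5 fell by 0.88 on the log2 scale (SE 0.22), but missed the threshold under length and GC offsets (adjusted p 0.0698). Dnaja1 fell by 1.40 (SE 0.32), and without chow replicate 3 its adjusted p was 0.0535.

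Hspa1a and Hspa1b lie side by side and moved together, and the stretches before their starts (RefSeq, GRCm38.p6, minus strand, chr17:34972157-34972306 and chr17:34959239-34959388) show how alike they are: 149 of 150 bases are the same. The capitals mark a match to GAANNTTC, the paired unit that heat shock factor binds, 104 to 97 bases before the start, and the motif reads the same on both strands.
Hspa1a: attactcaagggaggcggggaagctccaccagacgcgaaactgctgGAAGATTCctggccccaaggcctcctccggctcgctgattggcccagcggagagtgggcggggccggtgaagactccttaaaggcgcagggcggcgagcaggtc
Hspa1b: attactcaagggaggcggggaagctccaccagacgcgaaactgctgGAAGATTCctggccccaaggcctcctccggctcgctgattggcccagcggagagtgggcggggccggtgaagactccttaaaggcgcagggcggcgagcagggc
Windows of 3 of the 5 heat shock genes that fell held the unit, against 9.04% of 27025 genes with a window of the same length, and none of these 5 windows held a match to the PPAR element. Among tested genes with a window, 6.92% held the heat shock unit. Hspa1a and Hspa1b are among the 3, so nearly the same stretch is counted for both. The match is a description of the letters. Reads of so similar a gene pair can be assigned to either copy, so the split between them is uncertain.

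Class II antigen presentation showed the lowest median of the 53 lists, -1.89 over 10 tested genes (-1.97 without chow replicate 3). Of these genes 5 fell and 0 rose, against 3.20% called over all genes, and 5 of 5 passed again without that library. H2-Aa, the alpha chain of a class II molecule (ENSMUSG00000036594, chromosome 17, 34282744 to 34287827), measured 29.90, 39.73 and 21.95 CPM in chow and 9.09, 7.35, 6.57 and 4.84 CPM in METTL3 hearts. The lowest chow library, replicate 3, was still far above the highest METTL3 library. H2-Aa was 4.38-fold lower (log2 fold change -2.13, SE 0.28, edgeR adjusted p 0.00726). The beta chain genes H2-Ab1 and H2-Eb1 were 5.52-fold and 5.34-fold lower, and the invariant chain gene Cd74, which escorts class II molecules, 4.23-fold. The protease gene Ctss, which trims that chain, was 3.04-fold lower. With length and GC offsets H2-Aa, H2-Eb1 and Ctss passed, and H2-Ab1 (adjusted p 0.0718) and Cd74 (0.0813) did not.

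Macrophage markers lay lower alongside. Of 21 tested, 7 fell and 0 rose, against 3.20% called over all genes (median -1.12, or -1.08 without chow replicate 3). The groups did not overlap in 12, against 18.7% of all genes tested. Summed over the list, the level ran from 882.995 to 1532.28 CPM in chow and from 379.827 to 599.144 CPM in METTL3 hearts, with chow replicate 3 the highest. In whole tissue, fewer cells of a type and less RNA per cell cannot be told apart. Lymphocyte markers, 19 listed and 7 tested, summed to 17.5666 to 27.0757 CPM in chow and 4.6059 to 12.7700 CPM in METTL3 hearts. The part of such cells in the class II values was not tested.

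C1qa, a chain of the complement starter C1q (ENSMUSG00000036887, chromosome 4, 136895917 to 136898803), measured 42.4, 68.2 and 164 CPM in chow and 17.4, 14.9, 19.5 and 9.68 CPM in METTL3 hearts. Chow replicate 3 was far above its group, but the other chow libraries were also above every METTL3 library. C1qa was 5.96-fold lower (log2 fold change -2.57, SE 0.39, edgeR adjusted p 0.0101; -1.86 without chow replicate 3). C1qc, its partner chain, was 3.19-fold lower and Fcrls, an Fc receptor-like gene of resident macrophages, 9.59-fold. Csf1r, the receptor for the macrophage growth factor, was 2.51-fold lower. Each passed again without chow replicate 3, while Fcgr1 (adjusted p 0.0518) and Ms4a7 (0.0507) did not.

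Apoe, a lipid carrier that macrophages secrete (ENSMUSG00000002985, chromosome 7, 19696109 to 19699188), measured 316, 459 and 497 CPM in chow and 124, 142, 153 and 118 CPM in METTL3 hearts. It was 3.15-fold lower (log2 fold change -1.65, SE 0.22, edgeR adjusted p 0.00726; -1.54 without chow replicate 3), and the groups were far apart. Not all macrophage genes moved this way. Lyve1, a marker of resident macrophages and lymphatic vessels, showed a log2 fold change of 0.66 (SE 0.25), the scavenger receptor gene Cd163 of -0.15 (SE 0.32), and Ccr2, which marks cells recruited from blood, of -0.03 (SE 0.52), none past the threshold. Among the lymphocyte genes that fell were the immunoglobulin heavy chain gene Ighm and the tetraspanin gene Cd37. Ighm did not pass under length and GC offsets (adjusted p 0.0519).

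**Figure D4:**
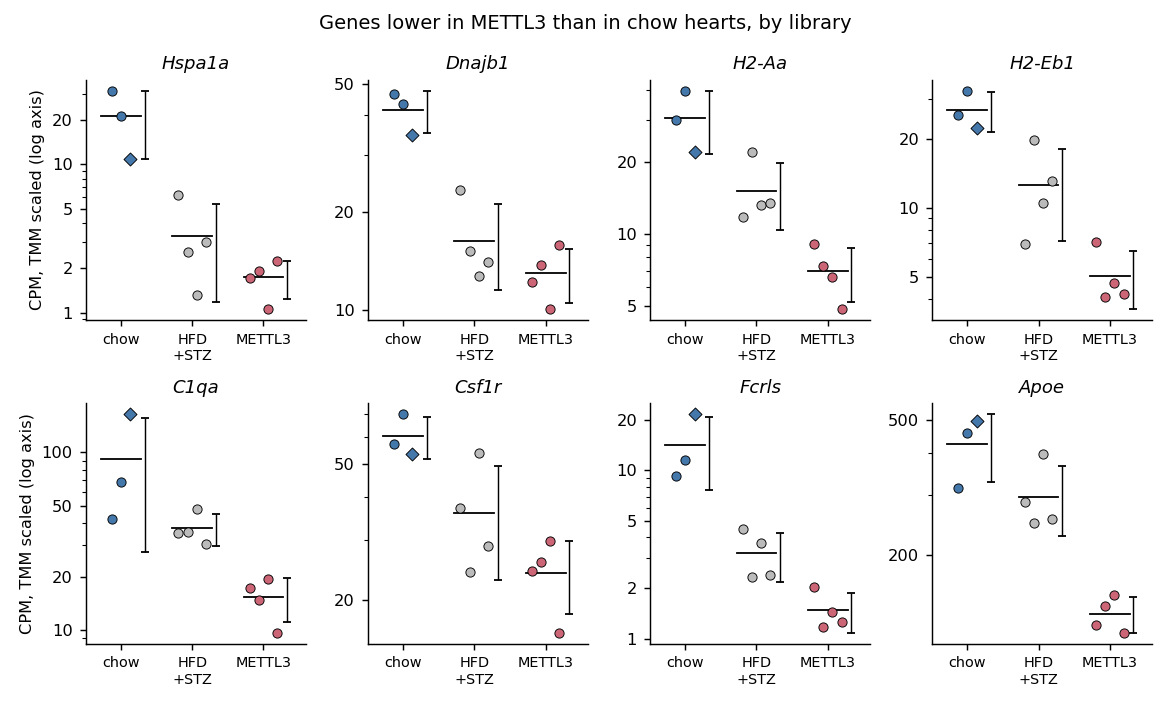
CPM on a log axis in each library (points; chow replicate 3 as a diamond), with the group mean (line) and SD (bar beside it), for 8 genes that fell. METTL3 and chow libraries do not overlap in any panel; chow replicate 3 is the highest chow library for C1qa at 164 CPM and the lowest for Hspa1a at 10.8 CPM.

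Further groups on the lower side moved in smaller numbers. Of 25 immediate early genes 5 fell, against 3.20% called over all genes (median -0.81, or -0.80 without chow replicate 3). They were the regulator genes Ier5 (log2 fold change -1.41, SE 0.23), Fosl2 (-1.29, SE 0.24), Klf2 (-1.39, SE 0.29), Nr4a1 (-1.65, SE 0.38) and Jund (-1.41, SE 0.35). Jund stood at 150 CPM in chow replicate 3 against 47.8 and 55.9 CPM in the other chow libraries, and lost its call without it (adjusted p 0.0777). With length and GC offsets Ier5 and Fosl2 passed, and Klf2 (adjusted p 0.0590), Nr4a1 (0.0723) and Jund (0.107) did not. Among 39 interferon-stimulated genes the RNA sensor Oas1a (-2.26, SE 0.38) and the ubiquitin-like Isg15 (-2.32, SE 0.46) fell, a share near the 3.20% over all genes, and both passed again without chow replicate 3. Close copies in the Oas1 family can share reads. In class I antigen presentation, 18 tested, the peptide transporter Tap2 and the immunoproteasome genes Psmb8 and Psmb10 fell, against 3.20% called over all genes. Each was highest in chow replicate 3. Of these only Psmb10 passed without that library, at a log2 fold change of -0.73 instead of -1.57, and with length and GC offsets it did not (adjusted p 0.0780). In 22 inflammasome and cytokine genes 0 passed.

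Among 27 sarcomere genes Lmod3, an actin filament nucleator, was the only call, a share near the 3.20% over all genes, at 90.8, 92.4 and 85.1 CPM in chow against 35.2 to 50.4 CPM in METTL3 hearts (log2 fold change -1.07, SE 0.19, edgeR adjusted p 0.0202). Among ion channels Kcnj2, which sets the resting potential, rose 1.88-fold and the sodium channel gene Scn7a 1.60-fold. The pacemaker channel gene Hcn2 fell (log2 fold change -1.26, SE 0.25). All of these passed again without chow replicate 3, and with length and GC offsets Lmod3 passed and these 3 channel genes did not.

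The usual marks of cardiac stress and scarring did not pass. Natriuretic peptide genes Nppa (-1.34, SE 0.50) and Nppb (-1.63, SE 0.68) had their highest values in chow replicate 3, 132 and 596 CPM, and log2 fold changes of -0.34 and -0.38 without it. Heavy chains of myosin, Myh6 (-0.38, SE 0.32) with Myh7 (0.07, SE 0.48), the calcium pump gene Atp2a2 (0.17, SE 0.29) and, for collagen, Col1a1 (-0.53, SE 0.43) together with Col3a1 (-1.13, SE 0.46) did not pass either. Of 20 calcium cycling genes and 32 collagen and matrix genes, 0 passed. For Atp2a2 the 95% interval of the log2 fold change reached from -0.45 to 0.79.

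**Figure D5:**
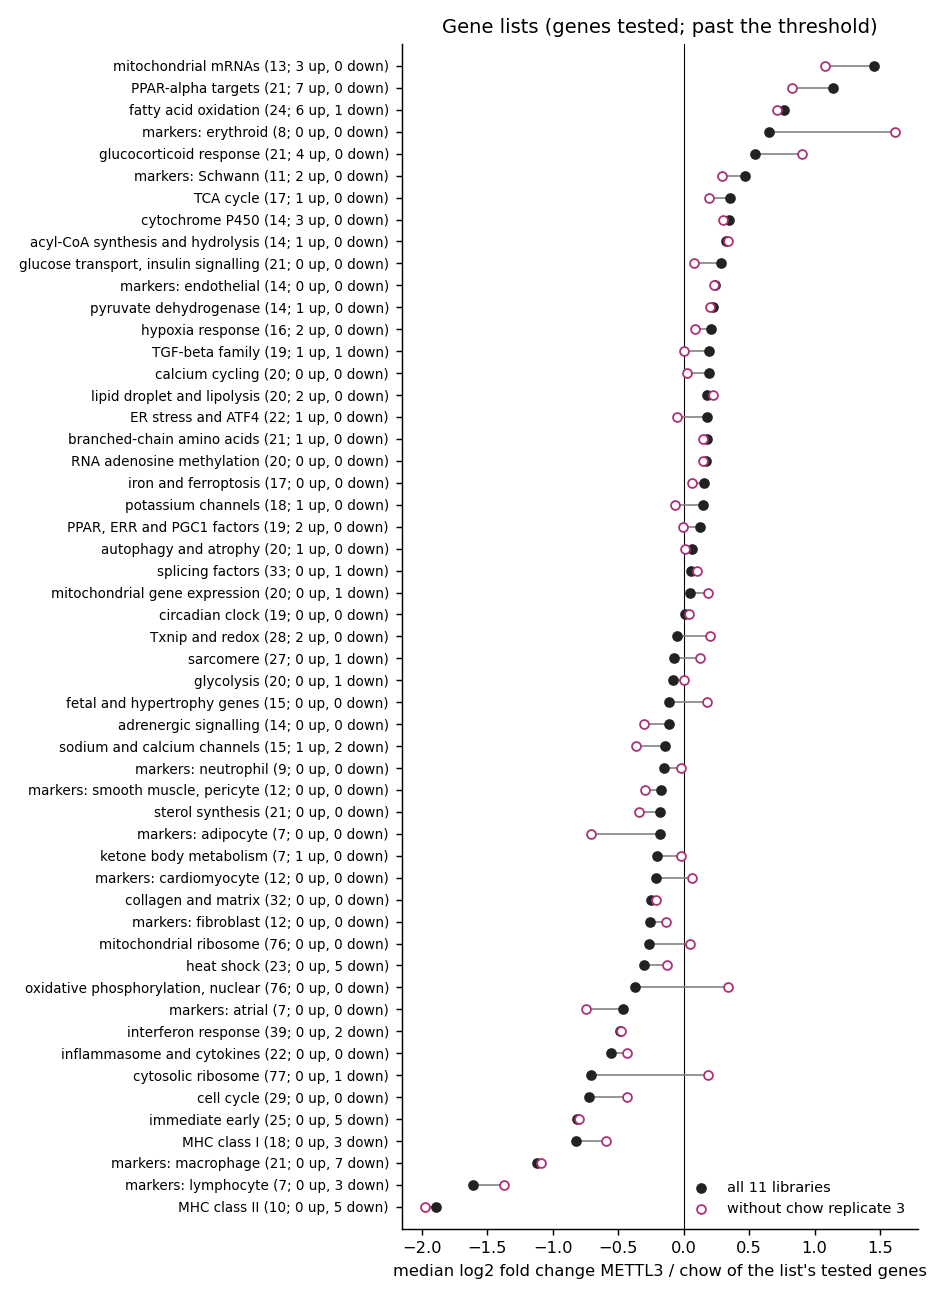
Median log2 fold change (METTL3 over chow) of the tested genes in each of 53 lists, with all 11 libraries (filled) and without chow replicate 3 (open); labels give the genes tested and those past the threshold. PPAR-alpha targets and fatty acid oxidation lie to the right and class II and macrophage genes to the left in both fits. Ketone body genes lie below 0 in both (-0.20 and -0.02), while nuclear oxidative phosphorylation (-0.37 to 0.34) and cytosolic ribosome (-0.71 to 0.19) cross 0.

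The largest fold changes lay partly outside these lists. Vwa3a (ENSMUSG00000030889, chromosome 7, 120739318 to 120805742) had the smallest p, with 6.37, 4.95 and 4.56 CPM in chow and 32.4, 30.8, 26.4 and 40.8 CPM in METTL3 hearts. The spread in both groups was small beside the gap. It rose 6.16-fold (log2 fold change 2.62, SE 0.24, edgeR adjusted p 0.00111). Higher by more were the protocadherin gene Pcdh20 (35.6-fold), Mstn, which encodes the muscle growth inhibitor myostatin (27.2-fold), and Cyp2b10, a cytochrome P450 of drug metabolism (17.6-fold). Their chow levels of 0.0710, 0.0870 and 0.215 CPM rest on 4, 5 and 12 counts. The potassium channel gene Kcnk1 rose 11.9-fold, the cell adhesion gene Sdk2 9.77-fold and the proteoglycan gene Spock2 6.62-fold. All of them passed again without chow replicate 3 and with length and GC offsets.

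On the lower side Batf3, a transcription factor of cross-presenting dendritic cells, had 75 counts over the chow libraries and 0 over the METTL3 libraries, at least 22.1-fold lower against a floor of 3 counts over the group. Helt, a Hairy-related transcription factor gene, had 102 and 2 counts, a ratio of 45.0 with a 95% counting interval of 12.1 to 377. The G protein gene Gna15 of blood cells was 23.1-fold lower and the adaptor gene Cass4 18.2-fold. Tmsb10, an actin-binding thymosin, was 6.71-fold lower, with chow replicate 3 at 91.3 CPM against 17.9 and 24.9 CPM. Its log2 fold change of -2.75 became -1.70 without that library (adjusted p 0.0188). Mylpf, a fast skeletal myosin light chain, and Ccdc88b, a gene of immune cells, lost their calls there, with adjusted p of 0.0788 and 0.0579.

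Set against the HFD+STZ hearts, METTL3 hearts had no gene past the threshold with edgeR (0 of 14862, 1346 at an unadjusted p under 0.05, and 0 without chow replicate 3), while DESeq2 called 139 and limma voom 395. Fat use genes had log2 fold changes of -0.33 (SE 0.56) for Pdk4, -0.74 (SE 0.45) for Angptl4, 0.00 (SE 0.16) for Ech1 and 0.47 (SE 0.20) for Cd36 in that direct comparison. For Fkbp5 it was -0.73 (SE 0.35), for Vwa3a 0.06 (SE 0.20) and for Hspa1a -0.93 (SE 0.46). Class II and macrophage genes had -1.11 (SE 0.27) for H2-Aa, -1.28 (SE 0.36) for C1qa and -1.14 (SE 0.21) for Apoe, and mt-Nd6 had 1.28 (SE 0.25). HFD+STZ against chow shares the chow libraries, and its log2 fold changes stood at 4.02 for Pdk4, 1.19 for Cd36, -2.68 for Hspa1a, -1.01 for H2-Aa and -0.51 for Apoe, beside 3.69, 1.66, -3.61, -2.13 and -1.65 for METTL3 against chow. Whether METTL3 hearts differ from HFD+STZ hearts in these genes was thus not shown by the adjusted test.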

How the data were processed

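Each deposited value is a whole-number count for 1 gene in 1 library. Per the labels' protocols, frozen whole hearts were extracted with Trizol, depleted of ribosomal RNA with a RiboZero kit and built into libraries with a NEB RNA kit. Per the submitters' processing notes FastQC, Salmon and mm10 were used. Tool versions, annotation release, strand setting and treatment of reads shared between genes were not given in the sources used here.

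Counts of all 11 libraries were fitted with edgeR 4.0.16 in R 4.3.3 (TMM scaling, filterByExpr with a minimum count of 10 and total of 15, quasi-likelihood test, Benjamini-Hochberg over 14862 genes, threshold 0.05), and the contrast is METTL3 minus chow. CPM uses TMM library sizes. Folds of means are ratios of mean CPM. A gene "passed again" where it also passed, with the same sign, in the fit without chow replicate 3. Groups come from the titles. No label says that replicates came from separate animals, so p-values cover only spread between these samples, possibly technical. No pair of libraries agreed within sampling noise. Counting intervals are exact 95% intervals and cover counting error only.

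The comparison and the gene lists were chosen with earlier results of these data known. Named genes are the 15 higher and 15 lower with the largest fold change among those past the threshold without overlap whose higher group averages at least 1 CPM, up to 4 called members of each list by p (up to 2 as values where none passed), and 17 fixed genes. Outside the rule, Csf1r, Fcgr1, Ms4a7, H2-Ab1, Jund, Dnajb5, Eci2, Decr1, Etfb, Mettl14, Fto, Lyve1, Cd163, Ccr2, Acadl, Ccnd1, Ciita, Cpt2, Eci1, Prnp, Sox10 and the mitochondrial genes mt-Nd4, mt-Nd5, mt-Co1, mt-Co3, mt-Cytb, mt-Rnr2 and mt-Tw were named after their values were seen. Not every gene the rule gives is named, and some results are not reported here.

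Alternatives were DESeq2 1.42.0, limma 3.58.1 voom with quality weights, other scalings and filters, robust moderation, fits of chow and METTL3 libraries alone, a block for the replicate number, the code range as a covariate, loess offsets (span 0.5) on gene length and GC content of GENCODE M21 transcripts (available for 99.9% of tested genes) and leaving out each library. Codes 78 to 98 alone, and offsets without chow replicate 3, were added after seeing the data. The procedure was tested on simulated data.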

Additional observations from a re-analysis of the deposited data

Results flagged for a closer look

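In the METTL3 group, 132 gene levels and shares were examined for a library far from the other 3, by a ratio of gap to range above Dixon's 95% critical value, which chance passes in about 1 of 20 groups. Of these 3 stood out, fewer than that share, each in METTL3 replicate 4, the library whose code falls in the range of the chow codes. Pparg measured 50.7 CPM there and 31.1 to 33.3 CPM in the others, and Bnip3 292 CPM against 225 to 236 CPM. Both lay farther from chow than the other METTL3 libraries. Cfd, the adipocyte protease adipsin, measured 0.538 CPM and was at 0 in the other METTL3 libraries, where any count at all in 1 library meets the criterion, so this flag carries no information.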

How the results depend on the processing

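Against 475 genes in the comparison of METTL3 with chow (271 higher, 204 lower), DESeq2 called 1509 (803 higher, 706 lower) and limma voom 3078 (1712 and 1366), and with no filter edgeR called 747 (312 and 435). Only chow and METTL3 libraries gave 54 (38 and 16), or 802 (478 and 324) without chow replicate 3. The replicate number as a block gave 5 (2 and 3), the code range as a covariate 1 (1 and 0), length and GC offsets 225 (140 and 85), and the block with the offsets 11 (7 and 4). The fit with codes 78 to 98 alone assumes that METTL3 replicate 4 varies as the chow libraries do, so no count is given for it. Same-numbered chow and METTL3 libraries deviated with correlations of 0.16, -0.13 and -0.23. Each chow library correlated best with a METTL3 library of another number. So few values cannot decide whether the numbers pair the samples. Leaving out 1 library gave 34 to 750 genes (19 to 432 higher, 13 to 435 lower). Upper-quartile scaling called 436 genes, of which 43.1% were higher, against 57.1%. Without chow replicate 3, 370 of the 475 passed again, and 197 with offsets added. For METTL3 against HFD+STZ DESeq2 called 139 genes and limma voom 395, where edgeR called 0. The mitochondrial difference of 20.9 points ran from 15.3 to 24.3 points without 1 library, with exact permutation p of 0.0667 to 0.1, in each case the smallest the libraries allow. Mettl3 missed the threshold under every setting.

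Of 84 named genes past the threshold, 78 passed again without chow replicate 3, 56 with length and GC offsets, 14 without chow replicate 2, 16 without METTL3 replicate 4, 4 with the replicate block and 1 with the code range, and 0 changed sign in any setting run. Medians of 30 of the 53 lists changed sign in at least 1 setting, 11 of them without chow replicate 3. In 8 lists the median lay over 1 SD between libraries from 0 and moved by over 1 SD, as follows. Glycolysis went from -0.0770 to 0.0800 with offsets, 0.0826 with the block and offsets, 0.0103 with only chow and METTL3 libraries without chow replicate 3, and 0.103 without that library and with offsets, and ran from -0.0658 to 0.00080 without 1 library, the last without chow replicate 3. Endoplasmic reticulum stress went from 0.180 to -0.0399 with only chow and METTL3 libraries without chow replicate 3 and -0.205 within codes 78 to 98, and ran from -0.0498 (without chow replicate 3; -0.0252 without METTL3 replicate 3) to 0.253. Sarcomere genes went from -0.0744 to 0.132 with only those libraries and 0.255 with offsets, both without chow replicate 3, and ran from -0.141 to 0.124. Cardiomyocyte markers went from -0.211 to 0.0701 and 0.143 in the same fits and ran from -0.275 to 0.0611. The highest value in both lists was the one without chow replicate 3. TGF-beta signalling went from 0.195 to -0.0119 with the code range and -0.0183 within codes 78 to 98. With the code range, cell cycle genes went from -0.721 to 0.0592 and fibroblast markers from -0.253 to 0.206. The methylation list went from 0.169 to -0.0259 with offsets, -0.0068 with the block and offsets and -0.0113 with offsets without chow replicate 3. Causes were not tested. Genes at a few counts, such as Batf3, are limited by depth.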

Other observations

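Cytochrome P450 genes and Schwann cell markers held further rises. Of 14 tested P450 genes 3 rose and 0 fell, against 3.20% called over all genes. All 3 passed again without chow replicate 3 and with length and GC offsets. Cyp1b1, which oxidises steroids and aromatic compounds, rose 3.71-fold (7.88 ± 0.765 CPM in chow, SD, n = 3, and 29.2 ± 4.90 CPM in METTL3 hearts, SD, n = 4) and Cyp4b1 1.92-fold, beside Cyp2b10. Of 11 tested Schwann cell markers the sodium channel gene Scn7a and the cadherin gene Cdh19 (2.45-fold) rose, against 3.20% called over all genes. Without chow replicate 3, 4 passed, Prnp among them, against 4.92% called over all genes. The list summed to 165.665 to 223.079 CPM in chow and 255.087 to 277.052 CPM in METTL3 hearts. With length and GC offsets 0 of these markers passed, and the transcription factor gene Sox10, which defines the lineage, measured 0.43 (SE 0.49) on the log2 scale.

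Cell cycle genes lay low without a call, with 28 of 29 tested values below 0 and a median of -0.72 (-0.43 without chow replicate 3, where the cyclin gene Ccnd1 fell, and 0.0592 once the code range was fitted as a covariate). The mitotic kinase gene Aurkb measured -4.03 (SE 1.26) on the log2 scale, on 62 counts over chow and 3 over METTL3 libraries, with an edgeR adjusted p of 0.0932. Red cell genes varied by library. The erythroid list summed to 337.142 to 2251.79 CPM in chow, highest in chow replicate 3, and 312.899 to 2004.98 CPM in METTL3 hearts, and 0 of 8 tested genes passed. Leaving out chow replicate 3 brought 380 genes past the threshold that had not passed before. Among them were the fatty acid oxidation genes Cpt2 (log2 fold change 0.79), Acadl (1.01) and Eci1 (0.77), and Ciita, the master regulator of class II genes (-2.24).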
